A study of Mus musculus with 6 samples.

Results

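The 10 genes described here encode lysosomal proteins: the cathepsins Ctsb, Ctsd, Ctsh, Ctsk, Ctsl, Ctss and Ctsz, the asparaginyl endopeptidase legumain (Lgmn), and the membrane glycoproteins Lamp1 and Lamp2. They were chosen by name, as proteases that digest thyroglobulin or as standard lysosomal genes, and are 10 of the 35027 genes in the expression table. None was chosen by its measured value. Their RNA was measured by RNA-seq in Kate-positive cells sorted from thyroid tumors of mice, to compare tumors that express mutant YAP with tumors that also carry mutant Braf. Kate is a red fluorescent protein encoded with the doxycycline-responsive activator (RIK allele) and expressed after Cre recombination. YAP tumors carried RIK and a tetO transgene for YAPS127A, a form of YAP that escapes Hippo pathway inhibition, which the labels describe as thyroid-specific in expression. BRAFYAP tumors carried the same alleles and LSL-BrafV600E, expressed from the endogenous Braf gene. All mice were on a mixed background and received doxycycline in the chow, from 4 weeks of age by the labels.

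There were 3 YAP libraries (replicates 1, 2 and 3) and 3 BRAFYAP libraries (replicates 1, 2 and 6), each from about 20000 sorted cells. By the labels a YAP library pooled 3 tumors while a BRAFYAP library was 1 tumor, so that pooling and genotype cannot be told apart, and p-values measure the spread between these libraries. Estimated depth was 26.2 to 36.9 M reads per library. BRAFYAP 6 stood apart, with Pearson's r across genes of 0.733 to 0.879 with the other libraries, whereas BRAFYAP 1 and 2 correlated at 0.979. The follicular cell factor Pax8 was detected in all 6 libraries, at 75.9 to 219.5 TPM per exonic length, while the iodide transporter Slc5a5 was at or below 0.521 in 5 libraries and at 17.2 in BRAFYAP 6. Macrophage markers were abundant in the sorted cells. Their summed level over 15 genes was 16161 to 50771 TPM per exonic length in YAP and 4321 to 15463 in BRAFYAP. Alveolar type 2 cell markers summed to 36073 in BRAFYAP 6 and to 205 to 802 in the other 5 libraries.

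Lysosomal proteases degrade proteins delivered by endocytosis, phagocytosis and autophagy in an acidic lumen. In thyroid follicular cells, cysteine and aspartic cathepsins digest thyroglobulin and so release thyroid hormone from it. In macrophages and other antigen-presenting cells, the same enzyme family trims the invariant chain and prepares peptides for class II presentation, and in osteoclasts Ctsk digests bone collagen. Lamp1 and Lamp2 coat the inner face of the lysosomal membrane and shield it from these enzymes. Many lysosomal genes carry a CLEAR element near their start, a sequence built around CACGTG that is bound by TFEB and TFE3.

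Sequences upstream of 2 genes are shown, since Ctss was one of the 2 members without overlap between genotypes and Lamp1 had the most CACGTG matches. Each is the 250 bases before the RefSeq start (GRCm38.p6), 5′ to 3′ on the gene's strand, at chr3:95526536-95526785 (plus strand) for Ctss and chr8:13158911-13159160 (plus strand) for Lamp1. Capitals mark an interferon-stimulated response element (GAAA, any 2 bases, GAAA) in Ctss and CACGTG in Lamp1.
Ctss: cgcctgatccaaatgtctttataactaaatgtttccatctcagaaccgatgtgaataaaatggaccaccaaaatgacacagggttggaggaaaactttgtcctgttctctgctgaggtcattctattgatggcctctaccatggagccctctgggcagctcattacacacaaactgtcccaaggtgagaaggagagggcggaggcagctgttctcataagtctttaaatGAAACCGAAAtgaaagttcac
Lamp1: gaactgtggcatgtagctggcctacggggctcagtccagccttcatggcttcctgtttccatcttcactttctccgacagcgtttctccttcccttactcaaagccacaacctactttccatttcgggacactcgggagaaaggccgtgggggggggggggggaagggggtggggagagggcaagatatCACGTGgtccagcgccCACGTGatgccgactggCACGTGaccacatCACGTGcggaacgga
In Ctss the match starts 21 bases before the start site. In Lamp1 the 4 matches start 61, 45, 28 and 15 bases before it.

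Promoter windows of 300 bases (250 before and 50 after the start) were given by RefSeq for 8 of the 10 genes, all but Ctsb and Ctsh, and were searched on both strands. CACGTG was found in 4 of the 8, Ctsd with 2 matches (245 and 98 bases before the start), Ctsl, Lamp1 and the downstream of 2 starts of Lgmn, against 7.17% of 32544 promoters. The full CLEAR consensus, which is CACGTG with GT before it and AC after it, was in 0 of the 8 and in 0.329% of all promoters. The interferon-stimulated response element was in Ctss and Lamp1, against 3.45% of all promoters. CATTCC, the core recognized by the YAP partner TEAD, was found in 1 window, that of Lgmn, and in 14.6% of all promoters. TTCNNNGAA, an interferon gamma activated site, and TGANTCA, an AP-1 site, were in 0 of the 8 and in 8.33% and 7.79% of all promoters. These matches are descriptions of letters in the windows and not measured binding sites.

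Compared per exonic length, the 10 genes spanned a wide range of RNA levels. The deposited values had been divided by the whole span of a gene with its introns, so levels of different genes are given as TPM recomputed per exonic length. Ctsd, the main aspartic protease of the lysosome, was the most abundant of the 10 in each of the 6 libraries. It was at 8710.5, 5990.1 and 5235 TPM per exonic length in YAP 1, 2 and 3 and at 8124, 9968 and 10772 in BRAFYAP 1, 2 and 6. Ctsk was at 17.4, 7.60 and 6.37 in YAP and at 59.8, 124 and 10.3 in BRAFYAP, and was the lowest of the 10 in each library but BRAFYAP 2, where it exceeded Lamp1 and Lamp2. The mean level of Ctsd over all 6 libraries was 216 times that of Ctsk.

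The order of the genes between these extremes differed between genotypes. Ctss, an endopeptidase made chiefly by myeloid cells, was second in all 3 YAP libraries, with a mean of 2063 ± 991 TPM per exonic length (SD, n = 3), and ranked lower in each BRAFYAP library, behind Ctsz and Ctsb, with a mean of 489.9 ± 269.8. Ctsz, a carboxypeptidase, and Ctsb, which has both endopeptidase and peptidyl-dipeptidase activity, had means of 1169 ± 720.2 and 1155 ± 269.7 in YAP and of 938 ± 134 and 1264 ± 880.0 in BRAFYAP (SD, n = 3), so their order did not differ beyond their spread. Lgmn (592 ± 112 in YAP) and Ctsl (465 ± 126 in YAP) likewise lay within the spread of each other in YAP, and Ctsh, Lamp2 and Lamp1 were below 400 TPM per exonic length in every library.

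Together the 10 genes took 0.922 to 1.50% of the recomputed TPM in YAP and 1.20 to 1.52% in BRAFYAP. Within that total the share of Ctsd was 58.0, 44.7 and 56.8% in YAP 1, 2 and 3 and 67.7, 75.3 and 70.8% in BRAFYAP 1, 2 and 6. The shares of the 2 genotypes did not overlap, and Ctss and Lgmn, described next, were the members whose own levels were lower in each BRAFYAP library. A share depends on the other members as well, and the levels of Ctsd itself overlapped between genotypes.

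**Figure D1:**
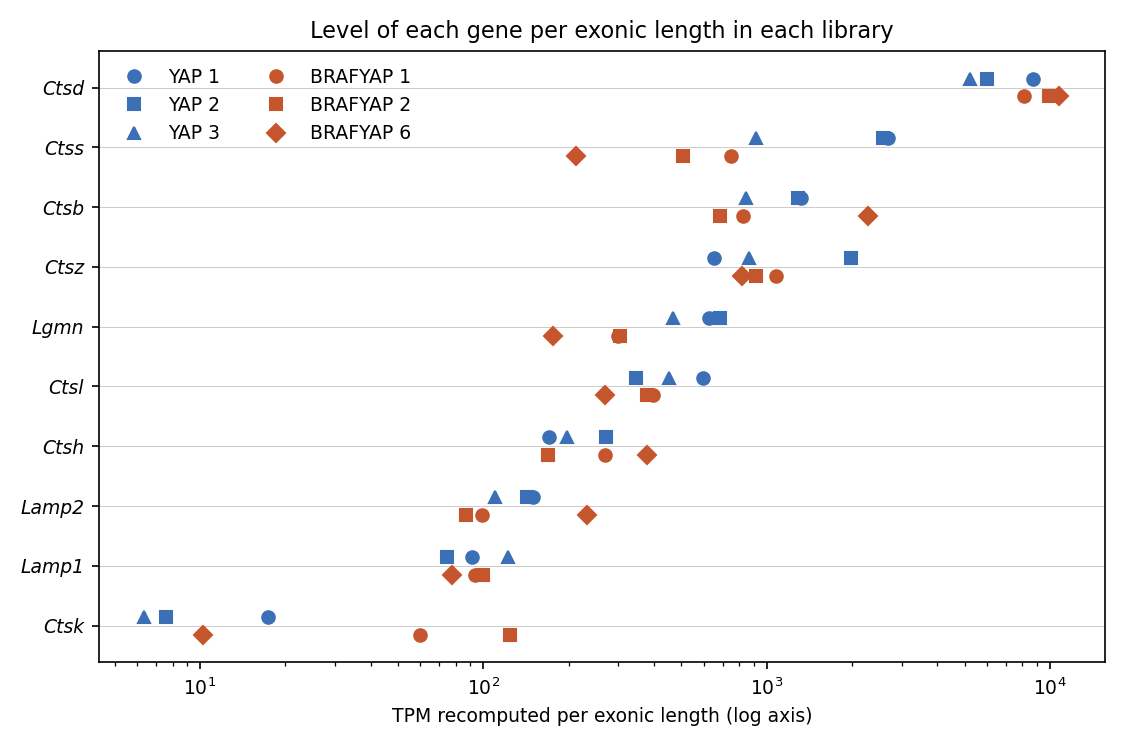
TPM recomputed per exonic length (horizontal log axis) for each of the 10 genes (vertical axis), 1 point per library, YAP in blue and BRAFYAP in orange. Ctsd is rightmost in each library, at 5235 to 10772, and the Ctss points of the 3 BRAFYAP libraries, 212 to 751, lie left of the YAP points, 919.8 to 2682.

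Differences between genotypes were tested on deposited TPM, as log2(TPM + 1), by limma. The fit covered the 7319 genes whose mean was 1 or more, and p-values were adjusted over all of them by the Benjamini-Hochberg method. All 10 genes passed that minimum, and 0 of 10 passed the adjusted threshold of 0.05, which 0.246% of all genes tested passed. With libraries weighted by their spread (array weights) Ctsk and Lgmn passed, at log2 fold changes of 1.96 and -0.71, but so did 19.0% of all genes. At an unadjusted p under 0.05 there were 2 of the 10, Ctss and Lgmn, both lower in BRAFYAP, against 19.9% of all genes in either direction and 9.17% in this one. The same 2 genes had no overlap between the 3 YAP and the 3 BRAFYAP libraries, against 28.2% of all genes in either direction and 16.4% in this one. A share of 2 in 10 is near 19.9, 28.2 and 16.4% and above 9.17%, a gap of few genes in a set of 10. The log2 fold change (BRAFYAP minus YAP) was above 0 for 3 genes and below 0 for 7, with a median of -0.10, and the median of all genes tested was -0.06.

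**Figure D2:**
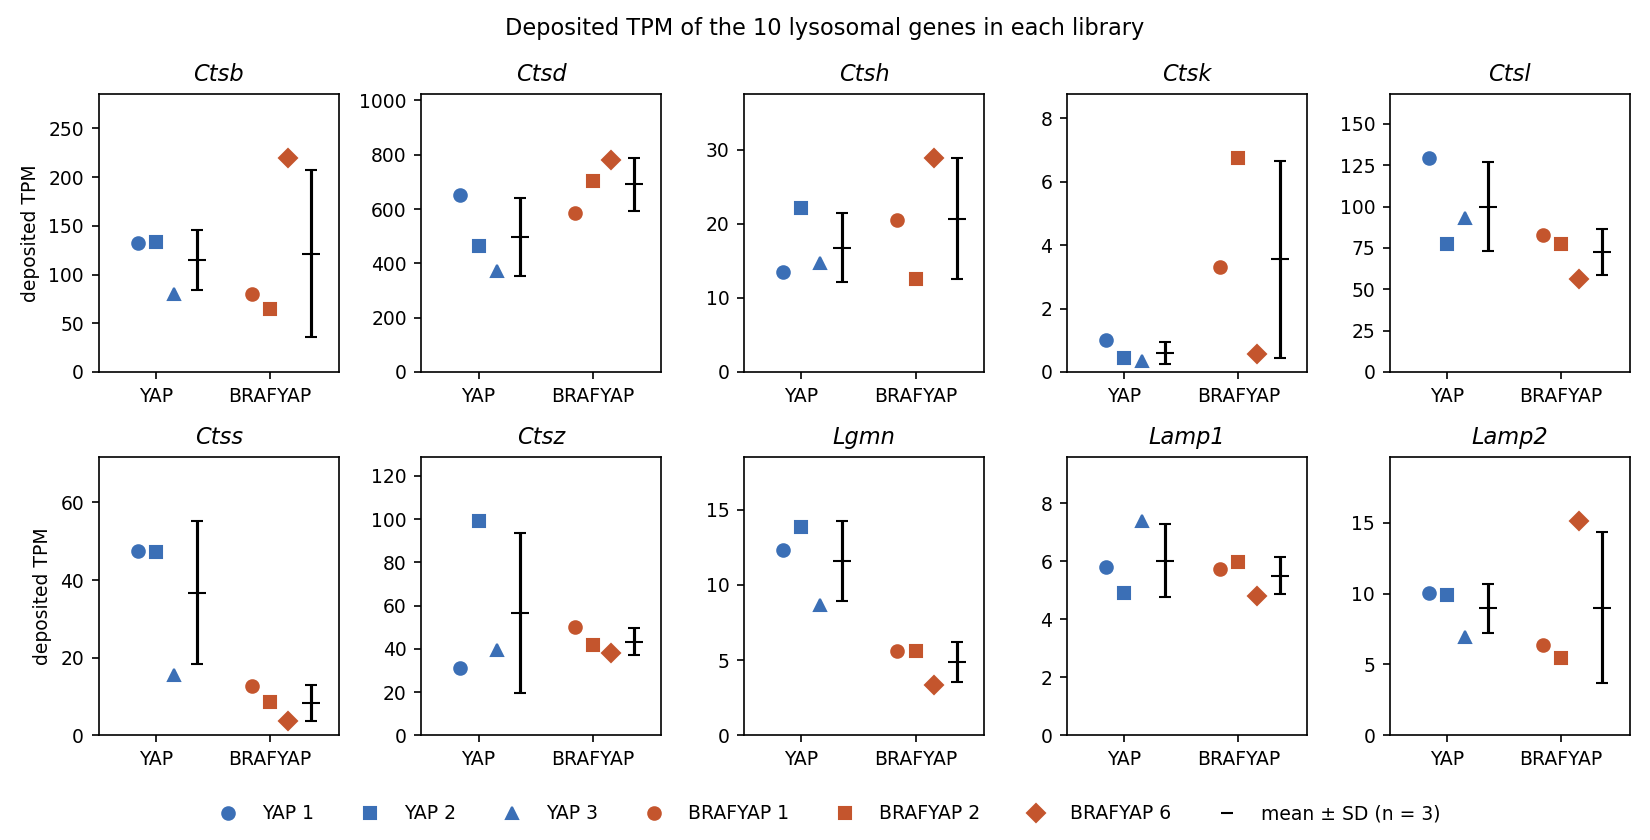
Deposited TPM (vertical axis, linear from 0, scaled per panel) of each gene in the 3 YAP (blue) and 3 BRAFYAP (orange) libraries, with the mean and SD (n = 3) beside them in black. The groups are separate for Ctss and Lgmn and overlap for the other 8 genes, and BRAFYAP 6 is the highest point for Ctsb, Ctsd, Ctsh and Lamp2.

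Among the cysteine cathepsins, Ctss was the one without overlap between genotypes. Ctss was at 47.5, 47.3 and 15.4 deposited TPM in YAP 1, 2 and 3 and at 12.8, 8.45 and 3.64 in BRAFYAP 1, 2 and 6. Each BRAFYAP library was below each YAP library, but YAP 3 lay closer to BRAFYAP 1 than to the other YAP libraries. This was a log2 fold change of -2.0 (SE 0.56, 95% interval -3.33 to -0.66), a 0.251-fold level on the TPM + 1 scale, and limma's adjusted p was 0.128, which ranked Ctss 537 of 7319 genes. Estimated reads behind these values were 13366 to 41234 in YAP and 3661 to 10327 in BRAFYAP. Without BRAFYAP 6 the log2 fold change of Ctss was -1.56 (adjusted p = 0.214), and with array weights it was -0.98 (adjusted p = 0.139).

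Ctsk, the collagen-degrading cathepsin best known from osteoclasts, had the opposite sign and the least even values. It was at 1.01, 0.454 and 0.348 deposited TPM in YAP 1, 2 and 3 and at 3.33, 6.76 and 0.574 in BRAFYAP 1, 2 and 6. BRAFYAP 1 and 2 were above each YAP library, while BRAFYAP 6 lay within the YAP range. Its log2 fold change was 1.25 (SE 0.55, 95% interval -0.04 to 2.54, adjusted p = 0.260). Because Ctsk values are near the added 1, the same model was run on estimated reads, which were 298, 113 and 103 in YAP and 915, 2623 and 197 in BRAFYAP. There the log2 fold change was 2.12 (SE 0.87, adjusted p = 0.226). Without BRAFYAP 6 it was 1.88 on deposited TPM (SE 0.32, adjusted p = 0.0807), and the groups then did not overlap, while without BRAFYAP 2 it was 0.73 (adjusted p = 0.483).

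Ctsk and Ctss are adjacent on chromosome 3, 17423 bases apart with 0 annotated genes between them, on the same strand. Ctsk lies at chr3:95499256-95509362 and Ctss at chr3:95526786-95556403 (mm10). Their log2 fold changes differed in sign, and the ratio of Ctsk to Ctss per exonic length was 0.00294 to 0.00692 in YAP and 0.0483 to 0.245 in BRAFYAP, with no overlap. In BRAFYAP 6 Ctsk lay within the YAP range, so the ratio of that library differed through its Ctss level. Such ratios were not computed for other pairs of neighbouring genes. Marker values bear on this pair. Fibroblasts are another known source of Ctsk, and the sum of 9 fibroblast markers was 135 to 261 TPM per exonic length in YAP and 154 to 286 in BRAFYAP. Of these markers 4 were tested, with a median log2 fold change of -0.11, and 1 was higher and 1 lower at an unadjusted p under 0.05. Under the minimum mean, limma on estimated reads gave 2.49, 1.61, 1.38 and 0.34 for Lum, Pdgfra, Postn and Fap. Their adjusted p were 0.153, 0.351, 0.289 and 0.819, and Lum was without overlap. Pdgfrb was at -0.43 (adjusted p = 0.590). Dcn, a collagen-binding proteoglycan, was at 35.5, 12.7 and 5.86 in YAP and 40.5, 90.7 and 44.9 in BRAFYAP (log2 fold change 1.09, adjusted p = 0.176), whereas Col1a1, a chain of type I collagen, was at 52.1, 82.6 and 41.8 in YAP and 23.1, 34.2 and 11.3 in BRAFYAP (log2 fold change -1.22, adjusted p = 0.149). The 2 genes thus differed in opposite directions, each without overlap.

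The 6 osteoclast markers summed to 214 to 315 TPM per exonic length in YAP and to 75.9 to 277 in BRAFYAP. Calcr and Oscar were at or below 0.776 in all 6 libraries. Dcstamp, a fusion protein of osteoclasts and dendritic cells, made up much of the sum in YAP, at 288, 247 and 129.7 against 97.4, 50.8 and 18.3 in BRAFYAP (log2 fold change -1.89, adjusted p = 0.115). Mmp9, a gelatinase, had the sign of Ctsk, at 14.5, 19.1 and 60.3 in YAP and 158, 82.3 and 51.0 in BRAFYAP (log2 fold change 1.34, adjusted p = 0.196), with overlap. The part of fibroblasts or osteoclasts in the Ctsk values was not tested.

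Ctsb was at 132, 133 and 79.6 deposited TPM in YAP 1, 2 and 3 and at 79.6, 64.4 and 219.9 in BRAFYAP 1, 2 and 6. BRAFYAP 6 held the highest value of all libraries. BRAFYAP 2 was below the lowest YAP library, and BRAFYAP 1 was nearly level with it (79.56 against 79.63 in YAP 3). The log2 fold change was -0.10 (SE 0.50, 95% interval -1.29 to 1.08, adjusted p = 0.929), and without BRAFYAP 6 it was -0.64 (adjusted p = 0.370). Ctsh, an aminopeptidase that also processes surfactant protein in the lung, was at 13.5, 22.1 and 14.7 in YAP and at 20.6, 12.6 and 28.9 in BRAFYAP. Its log2 fold change was 0.25 (SE 0.36, 95% interval -0.61 to 1.10, adjusted p = 0.728) with all libraries and -0.02 without BRAFYAP 6. BRAFYAP 6 therefore held the highest value of both Ctsb and Ctsh and its removal moved the difference of each.

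Ctsl, which cleaves thyroglobulin and, in thymic epithelium, the invariant chain, was at 129, 77.5 and 92.8 deposited TPM in YAP 1, 2 and 3 and at 82.8, 77.5 and 56.5 in BRAFYAP 1, 2 and 6. The groups overlapped, with a log2 fold change of -0.45 (SE 0.30, 95% interval -1.17 to 0.27, adjusted p = 0.444). Ctsz was at 31.3, 99.1 and 39.6 in YAP and at 50.2, 41.6 and 38.1 in BRAFYAP. YAP 2 was well above every other library for Ctsz, and the log2 fold change was -0.21 (SE 0.44, 95% interval -1.26 to 0.84, adjusted p = 0.820) with it and 0.28 without it.

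The aspartic protease Ctsd was at 652, 463 and 371 deposited TPM in YAP 1, 2 and 3 and at 586, 703 and 782 in BRAFYAP 1, 2 and 6. BRAFYAP 2 and 6 were above all YAP libraries, while BRAFYAP 1 was below YAP 1. For Ctsd the log2 fold change was 0.51 (SE 0.30, 95% interval -0.21 to 1.22), and limma's adjusted p was 0.390. It stayed between 0.32 and 0.72 when each library was left out in turn.

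Lgmn, which cleaves after asparagine and activates several cathepsins, was lower in BRAFYAP. It was at 12.3, 13.8 and 8.68 deposited TPM in YAP 1, 2 and 3 and at 5.63, 5.61 and 3.36 in BRAFYAP 1, 2 and 6. The highest BRAFYAP library was below the lowest YAP library. For Lgmn the log2 fold change was -1.11 (SE 0.29, 95% interval -1.78 to -0.43), a 0.464-fold level on the TPM + 1 scale, with an adjusted p of 0.109 that ranked Lgmn 405 of 7319 genes. With each library left out in turn it was -1.29 to -0.91, with adjusted p of 0.120 to 0.268.

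The membrane proteins showed smaller differences. Lamp1 was at 5.80, 4.89 and 7.39 deposited TPM in YAP 1, 2 and 3 and at 5.74, 5.98 and 4.80 in BRAFYAP 1, 2 and 6. The groups overlapped, and the log2 fold change of -0.10 had the smallest error of the 10 genes (SE 0.23, 95% interval -0.65 to 0.45, adjusted p = 0.837). Lamp2, which also takes part in chaperone-mediated autophagy, was at 10.0, 9.88 and 6.95 in YAP and at 6.39, 5.46 and 15.1 in BRAFYAP. BRAFYAP 6 was again the highest library, and the log2 fold change of Lamp2 was -0.10 (SE 0.39, 95% interval -1.02 to 0.81, adjusted p = 0.904) with it and -0.51 without it. The ratio of Lamp2 to Lamp1 per exonic length was 3.00 in BRAFYAP 6 and 0.871 to 1.93 in the other 5 libraries.

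**Figure D3:**
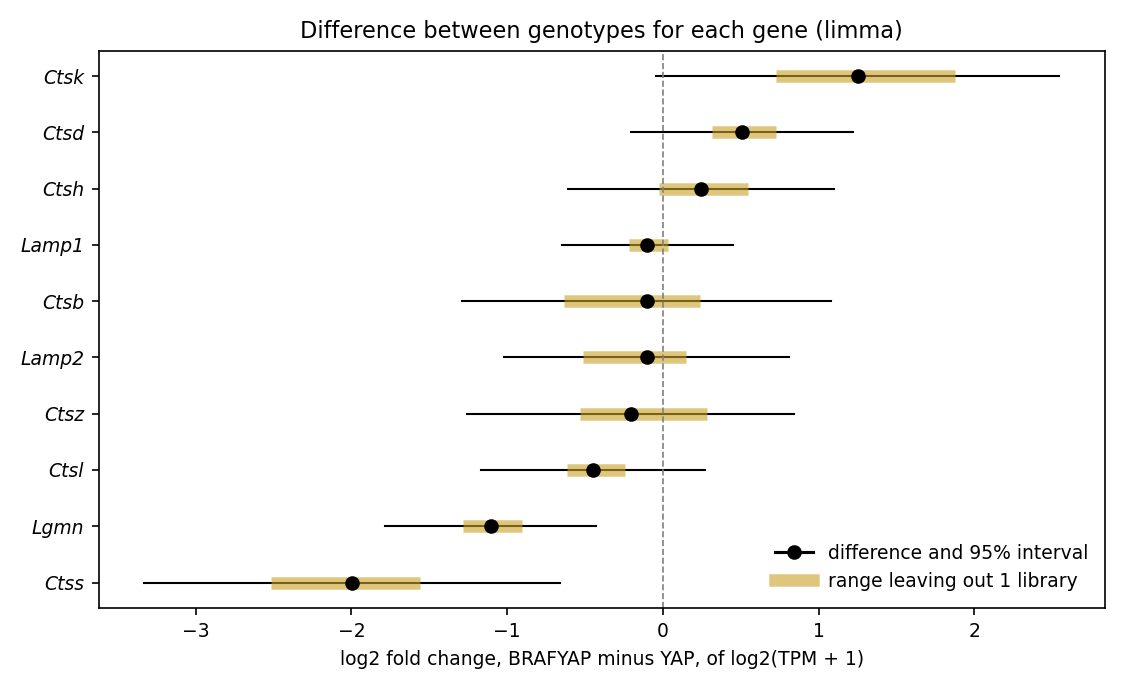
The log2 fold change (BRAFYAP minus YAP, horizontal axis) of each gene (vertical axis) by limma, with its 95% interval as a black line and the range with 1 library left out in yellow. Ctss (-2.0) and Lgmn (-1.11) lie left of 0 with intervals that do not reach it, while Ctsb, Lamp1 and Lamp2 lie at -0.10.

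BRAFYAP 6 was the highest library for 6 of the 8 alveolar type 2 cell markers (Sftpa1, Sftpb, Sftpc, Sftpd, Lamp3 and Napsa). The other 2, Abca3 and Slc34a2, were at 17.6 and 45.2 TPM per exonic length in it, against 17.9 to 35.9 and 21.7 to 68.8 in the other 5 libraries. In it the surfactant protein Sftpa1 was at 15442 TPM per exonic length and Sftpd at 9488, against at most 17.7 and 286 in the other libraries. Napsa, an aspartic protease of lung and kidney lysosomes, was at 9275 in BRAFYAP 6 and at 107 to 368 elsewhere. Alveolar type 2 cells also express Ctsh and Lamp3, and Lamp3 was at 136 in BRAFYAP 6 and at or below 0.304 in the other 5 libraries. Without this library 4 of the 10 genes (Ctsb, Ctss, Lgmn and Lamp2) were lower in each remaining BRAFYAP library than in each YAP library, against 22.2% of all genes, and 1 (Ctsk) was higher, against 19.1%. For Ctsb this rests on near-equal values, 79.56 deposited TPM in BRAFYAP 1 and 79.63 in YAP 3. At an unadjusted p under 0.05 there were 3 of the 10, against 18.5% of 7258 genes, and again 0 passed the adjusted threshold, against 0.276%. The part of lung cells in the values of BRAFYAP 6 was not tested.

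Macrophage markers were lower in BRAFYAP along with Ctss and Lgmn. Of the 15 macrophage genes 10 were tested, and all 10 had lower means in BRAFYAP, 9 of them with an unadjusted p under 0.05 (9.17% of all genes were lower at that level) and 7 without overlap (16.4% of all genes), with a median log2 fold change of -1.81 and 0 past the adjusted threshold. C1qa, a complement subunit made by macrophages, was at 2612, 3047 and 773 TPM per exonic length in YAP and at 461, 247 and 148 in BRAFYAP (log2 fold change -2.85, adjusted p = 0.0943). Csf1r, the receptor for macrophage colony-stimulating factor, was at 365, 644 and 181 in YAP and at 157, 102 and 42.5 in BRAFYAP (log2 fold change -1.85, adjusted p = 0.147). None of the 15 was listed at 0 in all libraries.

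Lyz2, lysozyme, made up most of the macrophage sum and is also made by alveolar type 2 cells, so the other 14 markers were summed, a choice made after the values were seen. Their sum was 11883, 13745 and 5133 TPM per exonic length in YAP 1, 2 and 3 and 3452, 2178 and 1313 in BRAFYAP 1, 2 and 6. Per 100 TPM of that sum, Ctss was at 22.6, 18.8 and 17.9 in YAP and at 21.8, 23.3 and 16.2 in BRAFYAP. On this scale the highest of the 6 values was in BRAFYAP 2 and the lowest in BRAFYAP 6, and the groups overlapped. Lgmn was at 4.96 to 9.10 per 100 TPM in YAP and at 8.63 to 13.9 in BRAFYAP, with overlap as well. Each of the other 8 genes was higher in BRAFYAP on this scale without overlap, such as Ctsd at 43.6 to 102 in YAP and 235 to 820 in BRAFYAP. The sum itself was lower in each BRAFYAP library, so a gene with an unchanged level is higher on this scale. Lamp1 and Lamp2 were among these genes, each with a log2 fold change of -0.10 on deposited TPM. The share of all genes that were higher on this scale was not computed. In bulk libraries fewer cells of a type and less RNA per cell cannot be told apart, and the part of macrophages in the Ctss and Lgmn values was not tested.

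**Figure D4:**
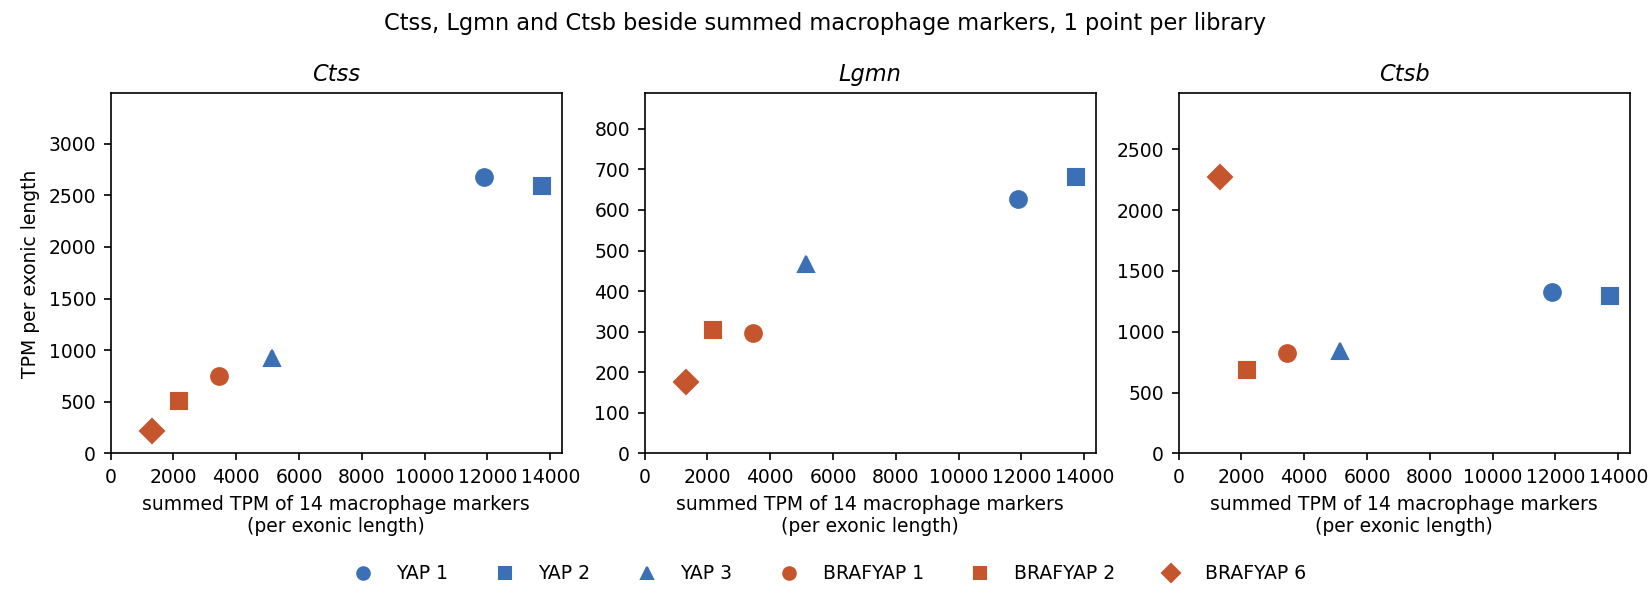
TPM per exonic length of Ctss, Lgmn and Ctsb (vertical axes, from 0) against the summed TPM per exonic length of 14 macrophage markers (horizontal axes, from 0), 1 point per library. Ctss goes from 212 in BRAFYAP 6, with a marker sum of 1313, to 2682 and 2586 in YAP 1 and 2, with sums of 11883 and 13745. Ctsb is highest in BRAFYAP 6, at 2277, where the sum is lowest. Outside BRAFYAP 6, Ctsb is at 1326, 1296 and 844 in YAP 1, 2 and 3. It is at 829 and 686 in BRAFYAP 1 and 2, with sums of 3452 and 2178, and the sum in YAP 3 is 5133.

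The class II antigen processing partners of Ctss had lower means as well. Of 9 such genes 7 were tested, 7 had a log2 fold change below 0, 6 had an unadjusted p under 0.05 (against 9.17% of all genes in that direction) and 5 had no overlap (against 16.4%), with a median of -1.69 and 0 past the adjusted threshold. Cd74, the invariant chain that Ctss trims, was at 14526, 18957 and 5333 TPM per exonic length in YAP 1, 2 and 3 and at 2873, 1606 and 3830.4 in BRAFYAP 1, 2 and 6 (log2 fold change -2.17, adjusted p = 0.113). Ifi30, a lysosomal thiol reductase of antigen-presenting cells, was at 744, 445 and 469 in YAP and at 259.7, 202 and 154 in BRAFYAP, with a log2 fold change of -1.42 and the lowest adjusted p of the 7 tested, 0.0941. Ciita, under the minimum mean, was at -2.65 by limma on estimated reads (adjusted p = 0.0541). Cd74, Ifi30 and Ciita were lower in each BRAFYAP library than in each YAP library, as were Ctss and Lgmn.

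Other lysosomal genes were described by lists, and 0 of the 100 genes tested from 10 lists (159 genes) passed the adjusted threshold. On estimated reads, which take in genes with a mean under 1 TPM, 148 of the 159 were tested and 0 passed. Of the 100 genes tested on deposited TPM, 4 were higher and 13 lower at an unadjusted p under 0.05, against 10.7% and 9.17% of all genes, with a median log2 fold change of -0.11. The 10 lists include the class II partners and thyroglobulin handling. Of the 13 lower genes 6 were class II partners, described above, and 1 was Iyd. Among 9 other lysosomal proteases tested, 2 were lower at an unadjusted p under 0.05 and 0 higher, with a median of -0.32. Scpep1, a serine carboxypeptidase, was at 369, 274 and 275 TPM per exonic length in YAP and at 178, 168 and 112 in BRAFYAP (log2 fold change -0.89, adjusted p = 0.126), and Ctsf, a further cysteine cathepsin, had a log2 fold change of 1.34 (adjusted p = 0.294). Of the cathepsin inhibitors, 3 of 12 were tested and 0 had an unadjusted p under 0.05. Cst6 had a log2 fold change of 1.43 (adjusted p = 0.453), with 59.1 TPM per exonic length in BRAFYAP 6 and at most 1.45 elsewhere, and Cstb, the cytosolic inhibitor stefin B, one of -0.01 (adjusted p = 0.985).

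Of 12 other lysosomal membrane proteins tested, 1 was higher and 1 lower at an unadjusted p under 0.05, with a median of 0.04. Mcoln1, the lysosomal calcium channel, was at 1.79, 8.46 and 3.92 TPM per exonic length in YAP and at 15.1, 17.3 and 16.4 in BRAFYAP (log2 fold change 1.13, adjusted p = 0.102). Cd68, a macrophage relative of the LAMP proteins, was at 1000.3, 849 and 495 in YAP and at 413, 292 and 192 in BRAFYAP (log2 fold change -1.43, adjusted p = 0.131). Both genes were without overlap, in opposite directions. Of 30 glycosidases, lipases, sulfatases and activators tested, 1 was higher and 2 lower at an unadjusted p under 0.05, with a median of -0.23. Naglu, which degrades heparan sulfate, had a log2 fold change of 1.52 (adjusted p = 0.102), and Acp5, the tartrate-resistant phosphatase of macrophages and osteoclasts, one of -2.22 (adjusted p = 0.0892).

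The proton pump that acidifies the lysosome showed small differences. Of 18 V-ATPase subunits tested 0 had an unadjusted p under 0.05, and the log2 fold changes with the lowest p in each direction were 0.64 for Atp6v1b2 and -0.29 for Atp6v1d (adjusted p = 0.443 and 0.466). Of 10 lysosomal sorting genes 5 were tested, and 1 was higher and 1 lower at an unadjusted p under 0.05. Nagpa, which uncovers the mannose 6-phosphate tag, had a log2 fold change of 1.00 (adjusted p = 0.178) and Gga3, a sorting adaptor, one of -0.68 (adjusted p = 0.196). Among sorting genes under the minimum mean, fitted by limma on estimated reads, Sort1 was at -2.20 without overlap (adjusted p = 0.0689). Gga2 was at 1.33 with overlap (adjusted p = 0.232). Of 8 regulators of lysosomal genes 3 were tested and 0 had an unadjusted p under 0.05, with log2 fold changes of 0.38 for Tfe3 and -0.02 for Flcn (adjusted p = 0.629 and 0.977). Of the regulators under the minimum mean, Mitf was at -1.79 on estimated reads without overlap (adjusted p = 0.113). Tfeb was at 1.74 with overlap (adjusted p = 0.244). Of 19 autophagy genes 11 were tested, and 1 was higher at an unadjusted p under 0.05. This was the autophagy receptor Sqstm1, at 102, 1122 and 415 TPM per exonic length in YAP and at 1592, 1189 and 1541 in BRAFYAP (log2 fold change 1.88, adjusted p = 0.243), while Hspa8, the chaperone of Lamp2-dependent autophagy, had a log2 fold change of -0.38 (adjusted p = 0.413). Under the minimum mean, Wipi2, Atg16l1 and Uvrag were higher without overlap on estimated reads. Their log2 fold changes were 1.26, 1.48 and 1.21 (adjusted p = 0.0897, 0.120 and 0.199). The lowest p of the lower ones was that of Atg5 (-0.24, adjusted p = 0.663).

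Thyroglobulin, the thyroid substrate of these proteases, was detected unevenly. Tg was at 64.4, 12.0 and 170.3 TPM per exonic length in YAP 1, 2 and 3 and at 1.29, 0.532 and 196 in BRAFYAP 1, 2 and 6, with a log2 fold change of -0.41 (adjusted p = 0.761). BRAFYAP 1 and 2 were below all YAP libraries, and BRAFYAP 6 was above them. Of 10 genes that make, take up or recycle thyroglobulin 2 were tested, and Iyd, which recovers iodide from its breakdown products, was at 240.2, 123 and 200.2 in YAP and at 42.7, 13.1 and 115 in BRAFYAP (log2 fold change -1.59, adjusted p = 0.146).

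**Figure D5:**
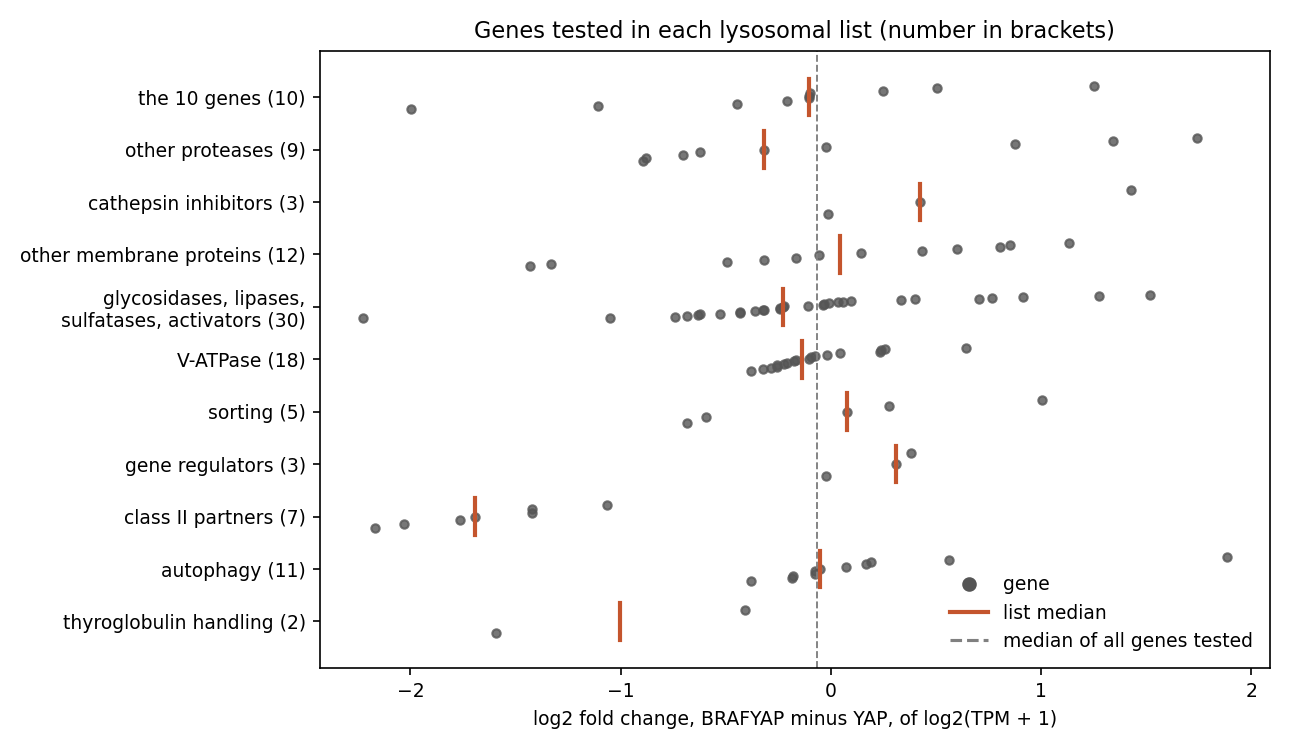
The log2 fold change (BRAFYAP minus YAP, horizontal axis) of each gene tested in the 10 genes and the 10 further lists (vertical axis, number of genes tested in brackets), with list medians in orange and the median of all genes tested, -0.06, as a dashed line. All 7 class II partners lie left of 0, with a median of -1.69, and the V-ATPase subunits lie between -0.38 and 0.64.

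Other genes overlap 6 of the 10 members. The sources state no strand for the counting, and reads of Ctsb and Fdft1, of Ctsz and Nelfcd, and of Lamp1 and Grtp1, which lie on opposite strands, could be shared. Estimated reads of Fdft1 were 2948 to 7018 per library against 50768 to 175039 for Ctsb, and those of Nelfcd were 1266 to 2816 against 10599 to 28205 for Ctsz. Ctss holds the pseudogene Hmgb1-ps5 (17.6 to 61.5 reads), and Ctsd and Ctsl overlap predicted genes. Ctsk, Lgmn, Lamp2 and Ctsh overlap 0 annotated genes.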

How the data were processed

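Reads were demultiplexed with bcl2fastq 2.2, aligned with STAR 2.6.1d (mm10) and quantified in Partek by its E/M method against Ensembl release 95. The authors deposited 1 table of TPM with 0.0001 added. RNA had been amplified for 12 cycles and libraries for 8 PCR cycles, and reads were paired, of 50 nt. Each column of deposited TPM sums to 181217.6. Low values (under 200 reads) multiplied by the genomic span of GENCODE M21 were within 0.05 of a whole read in 71.7 to 76.0% of cases, and in 8.3 to 25.0% with the exonic length. The deposited TPM were therefore read as divided by the genomic span, and from them estimated reads and TPM per exonic length (rescaled to a common library total) were computed for comparing genes. PCR copies carry no molecular identifiers, so read numbers describe counting only. The table had 0 columns without a sample and no columns of the authors' own comparisons.

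Samples were grouped by title. By the labels doxycycline began at 4 weeks of age and YAP libraries were pooled. The study's methods give the same start and its results text a later one. Neither mentions pooling, and the methods state that each biological replicate used 1 thyroid tumor per mouse. The labels were followed on both points, so the number of tumors in a YAP library rests on the labels alone. TPM are not counts, so limma 3.58.1 in R 4.3.3 (lmFit, eBayes with a trend, two-sided) was run on log2(TPM + 1) for the 7319 genes whose mean was 1 or more, with p-values adjusted by the Benjamini-Hochberg method (threshold 0.05). Fold changes on this scale understate low genes such as Ctsk. For Ctsk and for genes under that minimum the same model was run on estimated reads scaled to a common total (mean of at least 10). The scripts were tested on simulated data. All 10 members are named. Of each other list every gene past the threshold is named, otherwise the tested gene with the lowest unadjusted p in each direction, and of cell type lists the defining markers. Other genes were chosen after their values were seen. The members, lists and tests were chosen with earlier results of these data known. The marker lists for endothelial, T, B and neutrophil cells summed to at most 38.3 TPM per exonic length in each library, and those for epithelial and dendritic cells to 7071 to 21952 and 57.9 to 193.

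Alternatives were a pseudocount of 0.1, a minimum mean of 10 or none, median-ratio or quantile normalization, estimated reads, exonic length, voom, eBayes without a trend, array weights (gene-by-gene method), a replicate block, and each library left out. Promoter sequences are RefSeq's, on GRCm38.p6, and gene coordinates, counted from 1, come from GENCODE M21 (mm10).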

Additional observations from a re-analysis of the deposited data

How the results depend on the processing

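With array weights, which gave YAP 3 a weight of 3.03 and BRAFYAP 6 one of 0.299, 2 of the 10 genes passed limma's adjusted threshold, Ctsk (log2 fold change 1.96, adjusted p = 0.0125) and Lgmn (-0.71, adjusted p = 0.0448), and 15 of the other lysosomal genes, but so did 19.0% of all genes tested. In every other alternative 0 of the 10 genes passed (0 to 0 with a library left out), and 0 to 4 of the other lysosomal genes did with a library left out, the 4 being Ctsf, Mcoln1, Naglu and Sqstm1 without YAP 2, where 6.39% of all genes passed. Replicate numbers 1 and 2 occur in both groups. The deviations of same-numbered libraries from their group means correlated at -0.05 and 0.06, against -0.05 to 0.09 for the other pairs. The main fit used no pairing, though 2 same-numbered pairs are too few to decide whether the numbers pair the libraries. With the number as a replicate block, numbers 3 and 6 each hold 1 library, so the difference came only from libraries 1 and 2 of each genotype. In that fit 0 of the 10 genes and 0 of all genes passed, against 987 genes at an unadjusted p under 0.05. The log2 fold change in it was -0.094 for Ctsh and 0.12 for Lamp1, both of the opposite sign. Of 166 recomputed fold changes of the 10 genes 12 changed sign, and 0 of these were of Ctsd, Ctsk, Ctsl, Ctss or Lgmn. With each library left out in turn the log2 fold change ranged from -0.64 to 0.24 for Ctsb (above 0 at 0.015, 0.022, 0.089 and 0.24 without YAP 1, YAP 2, BRAFYAP 1 and BRAFYAP 2), from -0.022 (without BRAFYAP 6) to 0.55 for Ctsh, from -0.53 to 0.28 (without YAP 2) for Ctsz, from -0.22 to 0.035 (without YAP 3) for Lamp1, and from -0.51 to 0.15 for Lamp2 (above 0 at 0.051 and 0.15 without BRAFYAP 1 and 2). With array weights it was 0.021 for Ctsz. The cause was not tested. The adjusted p of Ctss was 0.0797 to 0.318 and that of Lgmn 0.0448 to 0.324 over all alternatives. With a minimum mean of 10, Ctsk, Lgmn, Lamp1 and Lamp2 were not tested. With 3 libraries per genotype and a wide spread between them, intervals stayed wide, such as -1.29 to 1.08 for Ctsb.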
